A study of Mus musculus with 3 samples.

Results

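Transcript levels of the proteasome genes were measured in mouse epiblast stem cells by RNA-seq. The genes are those whose symbol, matched to the tables through the Entrez Gene identifier, begins with Psma to Psmg followed by a digit. There were 50 of them among the 17209 genes with a row in any of the 3 tables, and 49 reached a mean of 1 CPM (counts scaled to library size) over the libraries, the level at which genes were compared. The cells, of strain 129 and labelled passage 1, are pluripotent cells of the kind derived from postimplantation epiblast and were grown on gelatin in serum with both inhibitors, IWR1 and Y27. The IWR1 library came from cells given 2 µM IWR1, a tankyrase inhibitor that dampens Wnt signalling, for 12 h. The Y27 library came from cells given 0.5 µM Y27 for 12 h, a dose given here as labelled, whose unit was not checked. The NT library came from cells from which both inhibitors had been withdrawn overnight, so a difference from NT can reflect the withdrawal as well as the treatment. Each group had 1 library, so differences between them were not set against replicates and are given without p-values.

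The proteasome is the large protease that degrades proteins tagged with ubiquitin. Its barrel-shaped core particle has outer rings of alpha subunits and inner rings of beta subunits, 3 of which are catalytic, and a regulatory particle with a ring of ATPases recognises, unfolds and feeds in the substrate. In cells that respond to interferon, the catalytic subunits can be replaced by those of the immunoproteasome, which favours peptides for antigen presentation. Pluripotent cells depend on proteasome activity to keep their proteins in order.

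The rule takes 31 genes of the standard core and regulatory particles, 3 immunoproteasome catalytic subunits, the thymus subunit Psmb11, 5 genes of activators, the inhibitor gene Psmf1, and 3 and 4 assembly chaperones of the regulatory and the core particle. It also takes 2 genes that do not encode subunits. Psmc3ip encodes a protein of meiotic recombination, and Psme3ip1 one that binds the activator PA28 gamma. The testis alpha subunit Psma8 was not analysed here.

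The estimated counts summed to 5607725 in IWR1, 5459332 in Y27 and 5767550 in NT. Of the 50 genes, 46 had whole counts in every library. The others are Psmb11, Psmd9, Psme2 and Psme2b, whose counts are fractional, as happens where reads are shared between similar transcripts, and their values are uncertain. Levels set side by side between genes are the authors' FPKM values, which are per length. Folds rest on counts scaled to library size, with an exact 95% interval for counting error alone in brackets. A log2 difference is taken between CPM values after adding 1 CPM to each. The 6 epiblast markers were all present, among them Pou5f1 at 982, 888 and 1070 FPKM and Sox2 at 115, 76.8 and 68.4 FPKM in IWR1, Y27 and NT. The 5 fibroblast markers summed to 15.6, 12.1 and 24.1 FPKM in IWR1, Y27 and NT, led by Col1a1, and the 4 of 6 immune markers with a row to 11.6, 8.91 and 15.8 FPKM. Both sums were highest in NT and lowest in Y27, as was the share of counts of the proteasome genes, and their part in the differences was not tested. Col1a1, Col1a2, Thy1 and Cd74 had that order, but other members did not. Pdgfrb was lowest in IWR1, at 0.36, 2.25 and 2.47 FPKM in IWR1, Y27 and NT. Cd68 was highest in Y27, at 5.41, 5.91 and 5.37 FPKM.

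The proteasome genes were among the more abundant transcripts of these cells. By FPKM, 37 of the 49 compared genes in IWR1, 36 in Y27 and 35 in NT were at or above the 90th percentile of all genes compared. The 50 genes together held 0.808% of all counts in IWR1 (Wilson 95% interval 0.801 to 0.816%), 0.763% in Y27 (0.755 to 0.770%) and 0.866% in NT (0.858 to 0.873%), so NT had the largest share and Y27 the smallest. In such bulk libraries, fewer cells of a kind and less RNA per cell cannot be told apart. The 31 genes of the core and regulatory particles, whose proteins assemble in fixed ratios, spanned a 4.35-fold range of FPKM in IWR1, a 4.64-fold range in Y27 and a 7.99-fold range in NT. Psmb4, a beta ring subunit, had the highest level in each library, at 348 FPKM in IWR1, 331 in Y27 and 415 in NT. The lowest was Psmd14, the deubiquitinase of the regulatory particle, in IWR1 at 80.0 FPKM, its neighbour in the lid, Psmd7, in Y27 at 71.4 FPKM, and the ATPase gene Psmc6 in NT at 51.9 FPKM. Assembly chaperones and the inhibitor ran from 11.9 to 64.0 FPKM over all libraries, the highest of them, Psmg1, lying above Psmc6 in NT at 56.3 FPKM.

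**Figure D1:**
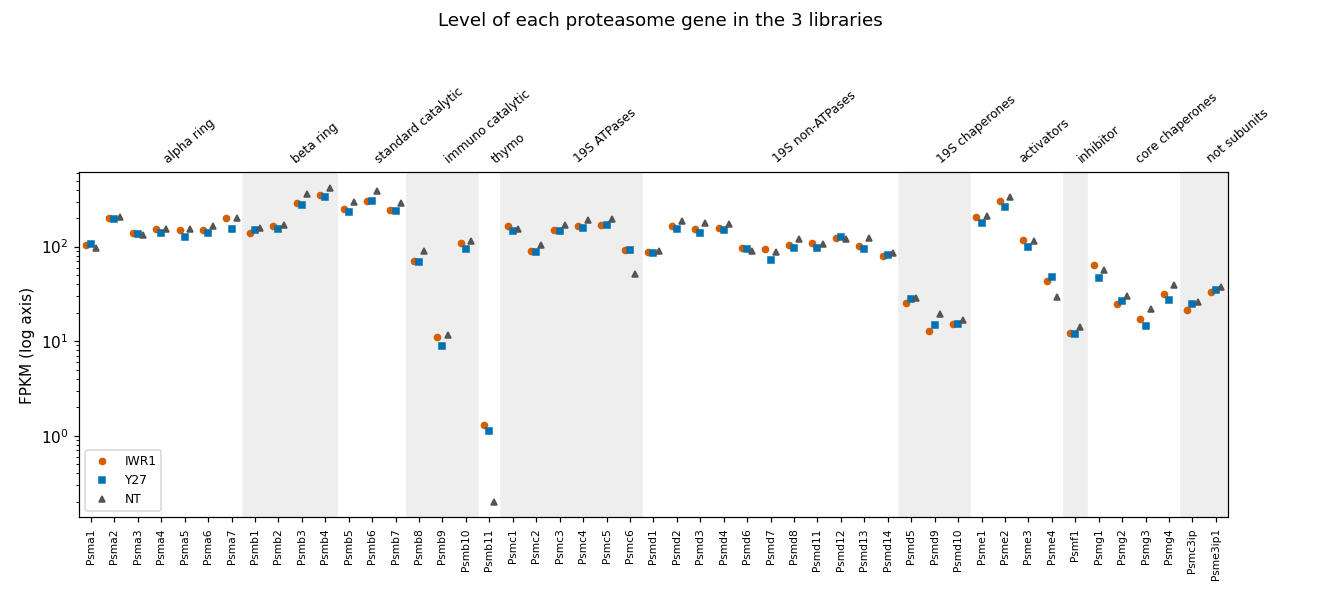
FPKM (log axis) of the 49 compared proteasome genes in the IWR1, Y27 and NT libraries, 1 point per library, grouped by role. Most core and regulatory particle genes lie near 100 FPKM or above, Psmb9 lies near 10 FPKM, and Psmc6 and Psme4 are the abundant genes with NT clearly below the treated libraries.

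Most proteasome genes were slightly lower in the treated libraries than in NT, and few differed by much. In IWR1, 38 of the 49 were lower than in NT, against 50.3% of the 12955 genes compared, and 11 were higher, against 49.7%. The median log2 difference was -0.18, against -0.0035 over all genes. In Y27, 43 of the 49 were lower than in NT, against 51.9% of all genes, and 6 were higher, against 48.1%, with a median of -0.30 against -0.023. At a threshold of 1.5-fold, 2 of 49 were higher in IWR1 (10.8% of all genes) and 1 lower (6.37%). In Y27, 3 of 49 were higher (14.9%) and 1 lower (5.53%). The higher genes include Psmb11, which reached the level for comparison only through the treated libraries. At a lower threshold, a log2 difference of 0.32, 3 were higher in IWR1 (23.0% of all genes) and 7 lower (16.2%), while in Y27 3 were higher (25.5%) and 18 lower (19%). Both comparisons use the same NT library.

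**Figure D2:**
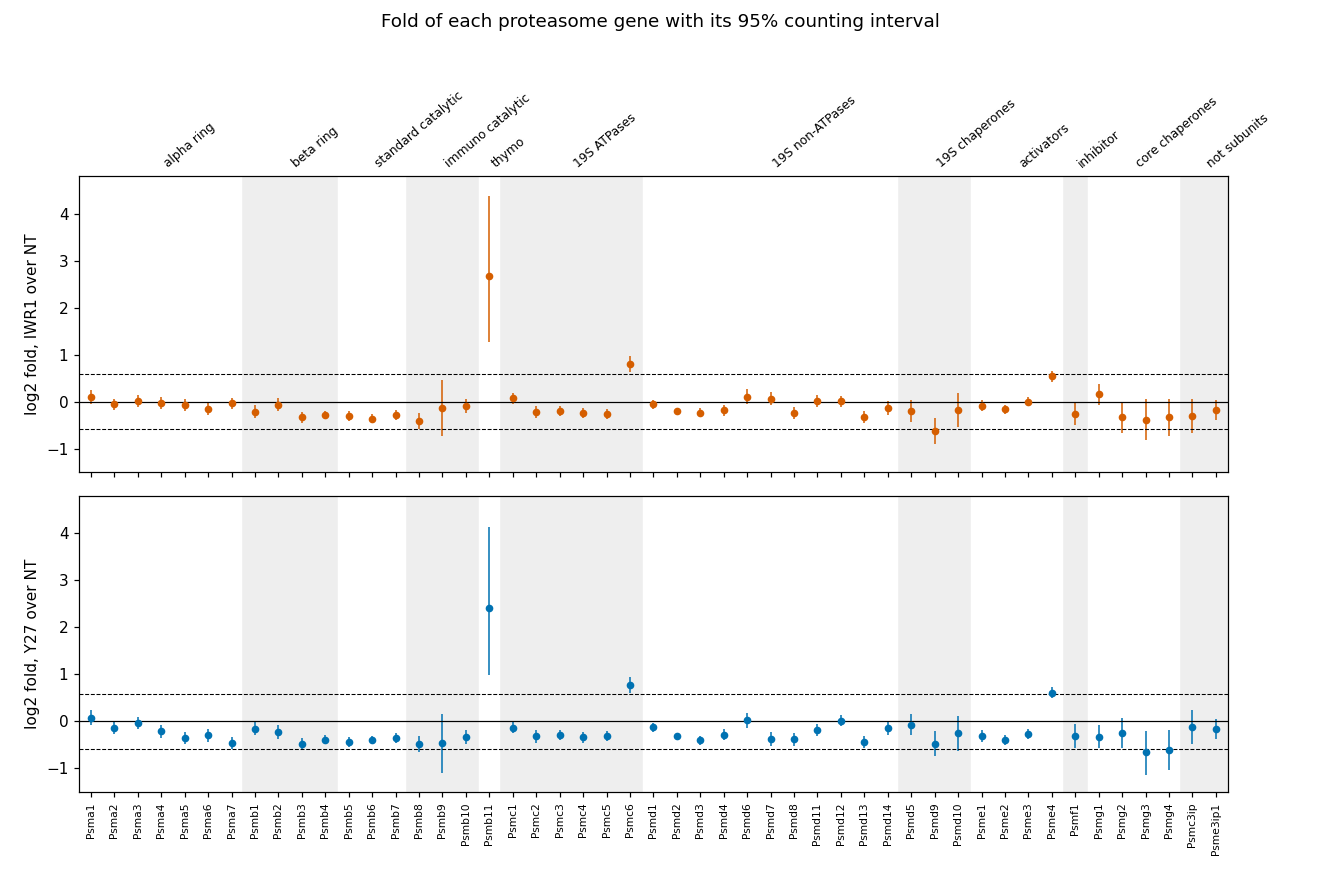
Log2 fold of each compared proteasome gene for IWR1 over NT (upper panel) and Y27 over NT (lower panel), from scaled counts with no pseudocount. Bars are exact 95% counting intervals and dashed lines mark 1.5-fold. Most points lie just below 0, while Psmb11, Psmc6 and Psme4 lie above it.

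These small shifts went with 2 properties of the transcripts. The proteasome transcripts were short, with a median length of 1313 bases against 2886 over all genes compared, at nearly the same median GC content, 49.8% in each. Over 12845 genes with a GC content, the Spearman correlation of the log2 difference with GC content was -0.42 for IWR1 over NT and -0.49 for Y27 over NT. Over 12955 genes that with length was 0.26 and 0.34. Genes share their libraries, so these are descriptions. Among the 49 proteasome genes the correlation with GC content was -0.36 and -0.61, and with length 0.28 and 0.42. The 11 that were higher in IWR1 had a median GC content of 47.1%, against 51.0% for the 38 that were lower, and the 6 that were higher in Y27 had 45.5%, against 50.8% for the other 43. Once the trend with length was removed, the median of the 49 was -0.07 for IWR1 and -0.14 for Y27, with 29 and 35 genes lower, against 50.8% and 52.5% of all genes. With the trend on length and GC content removed it was -0.12 and -0.20, with 34 and 41 lower, against 54.0% and 57.7% of all genes, whose medians were then -0.030 and -0.065. How much of the difference belongs to the treatments and how much to these properties cannot be told apart with 1 library a group.

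**Figure D3:**
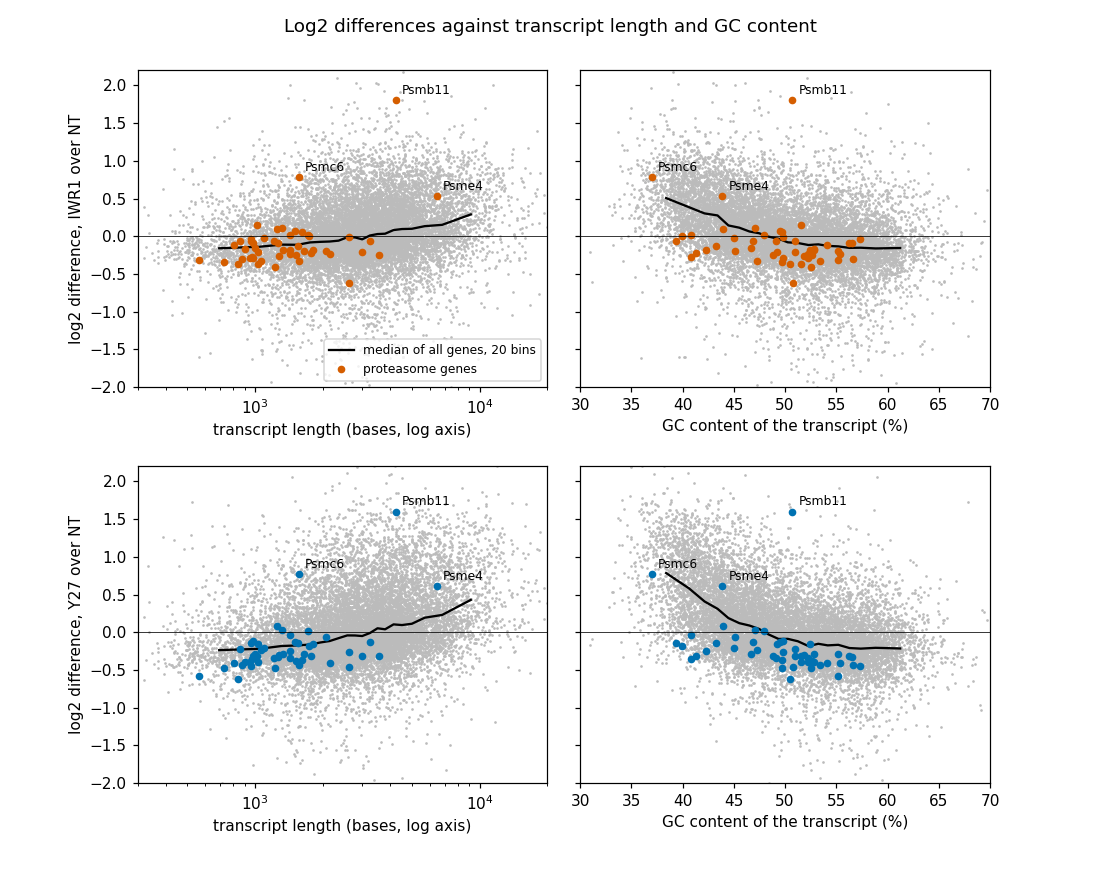
Log2 difference of each gene compared (grey), for IWR1 over NT (upper panels) and Y27 over NT (lower panels), against transcript length in bases (log axis) and GC content in percent. The black line joins the medians of 20 bins of all genes, coloured points are the proteasome genes, and points outside the axes are not drawn. The black line lies below 0 at short lengths and high GC contents, and Psmc6 is the proteasome gene with the lowest GC content.

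The alpha ring, whose subunits form the gate of the core and anchor its activators, differed little from NT in IWR1 and was lower in Y27. Its 7 genes had a median log2 difference of -0.04 in IWR1, ranging from -0.16 to 0.10, and of -0.20 in Y27, ranging from -0.45 to 0.08. Psma1 had 105, 107 and 96.5 FPKM in IWR1, Y27 and NT, the lowest of the ring in every library. Psma2, among the highest, had 200 FPKM in IWR1, 195 in Y27 and 205 in NT. Psma7 was at 201 FPKM in IWR1, 153 in Y27 and 202 in NT, so that Y27 stood below the other libraries. It was 1.37-fold lower in Y27 than in NT (1.2 to 1.5). With the length trend removed the medians of the ring became 0.10 in IWR1 and -0.0021 in Y27, and with length and GC content removed -0.07 and -0.23.

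The beta ring was lower in both treated libraries. The 4 beta genes without catalytic products had medians of -0.25 in IWR1 and -0.31 in Y27. All 4 were below NT in each, against 50.3% and 51.9% of all genes. Psmb3 was 1.26-fold lower in IWR1 (1.17 to 1.36), at 292 FPKM against 362 FPKM in NT, and 1.39-fold lower in Y27 (1.28 to 1.5), at 273 FPKM. The 3 standard catalytic subunits were lower as well. Psmb5, which carries the chymotrypsin-like activity and is the target of bortezomib, had 247 and 231 FPKM in IWR1 and Y27, against 299 in NT. Psmb6, of the caspase-like activity, had 306 and 307 FPKM, against 386 in NT. Psmb7, of the trypsin-like activity, had 245 and 237 FPKM, against 291 in NT. Each was lower in both treated libraries than in NT, from 1.21-fold for Psmb7 in IWR1 (1.12 to 1.30) to 1.35-fold for Psmb5 in Y27 (1.2 to 1.5), and none passed 1.5-fold. With the length trend removed the medians of these catalytic subunits were -0.15 in IWR1 and -0.18 in Y27, in place of -0.30 and -0.39, and with length and GC content removed -0.24 and -0.21.

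Immunoproteasome subunits were present at unequal levels. Psmb10, which replaces Psmb7, had 109 FPKM in IWR1, 94.8 in Y27 and 114 in NT. Psmb8, which replaces Psmb5, had 69.7, 68.2 and 90.8 FPKM. Psmb9, which replaces Psmb6, had 10.9, 8.89 and 11.7 FPKM, on 48, 38 and 53 reads. Within each library these genes can be set against the subunits they replace. Psmb8 stood at 28.2% of the FPKM of Psmb5 in IWR1 (25.3 to 31.4%), 29.5% in Y27 (26.3 to 32.9%) and 30.3% in NT (27.6 to 33.3%). Psmb10 stood at 44.5% of Psmb7 in IWR1 (40.7 to 48.7%), 40.1% in Y27 (36.4 to 44.1%) and 39.1% in NT (35.9 to 42.5%). Psmb9 stood at only 3.57% of Psmb6 in IWR1 (2.62 to 4.76%), 2.89% in Y27 (2.04 to 3.99%) and 3.03% in NT (2.27 to 3.98%). The intervals of the 3 libraries overlap for each pair. Overlap of separate intervals does not decide whether standard and immune subunits shifted against each other, and this was not tested. Psmb8 was 1.33-fold lower in IWR1 than in NT (1.18 to 1.5) and 1.39-fold lower in Y27 (1.23 to 1.57), close to its partner. The median of the 3 immune subunits, -0.12 in IWR1, became 0.029 with the length trend removed and 0.053 with length and GC content removed. Of 6 immune cell markers, Ptprc and Cd3e had no row in the tables used, and Itgam had at most 1.65 estimated reads. Cd68 had 5.41, 5.91 and 5.37 FPKM in IWR1, Y27 and NT, and Cd74 had 6.11, 2.85 and 10.3 FPKM. The part of other cells in the immunoproteasome levels was not tested.

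**Figure D4:**
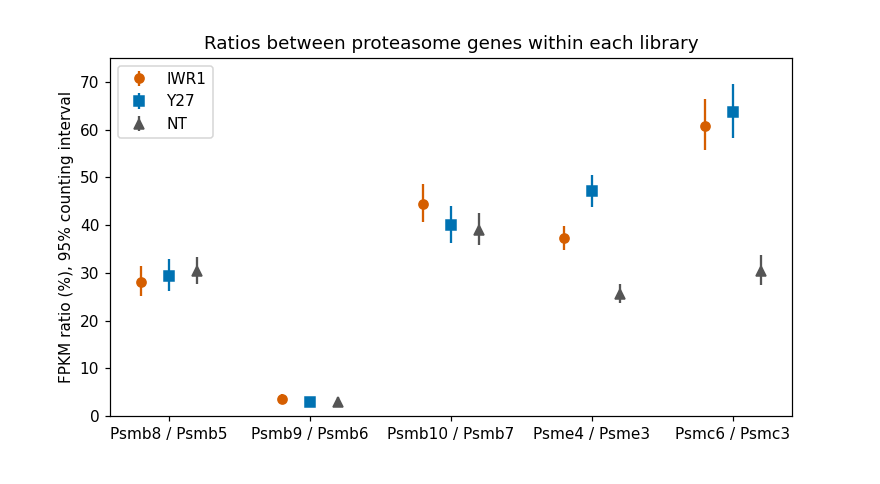
FPKM of a proteasome gene in percent of another within each library, with exact 95% counting intervals, for the IWR1, Y27 and NT libraries. The immunoproteasome ratios on the left overlap between libraries, while Psme4 over Psme3 and Psmc6 over Psmc3 are higher in the treated libraries than in NT. No trend with length or GC content is removed from the ratios.

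Genes that act with the immunoproteasome in class I antigen presentation were mostly lower than NT too. Of the 10 genes of this list, 9 were compared, with a median of -0.12 in IWR1 and -0.27 in Y27, and 7 of 9 below NT in each, against 50.3% and 51.9% of all genes. At 1.5-fold, 0 were lower in IWR1 (6.37% of all genes) and 1 in Y27 (5.53%). That gene was H2-D1, a class I heavy chain, with 40.8 FPKM in IWR1, 27.9 in Y27 and 40.4 in NT, on partly fractional counts. Irf1, a transcription factor that induces Psmb9 and Tap1, had 141 FPKM in IWR1, 168 in Y27 and 194 in NT. Erap1, a peptide trimming enzyme, had 22.7, 28.3 and 18.9 FPKM. Tap1, the peptide transporter gene that lies head to head with Psmb9, had 18.1, 22.9 and 20.4 FPKM.

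Within the regulatory particle, Psmc6 stood apart from its partners. The 6 ATPases form a ring with 1 copy of each product, yet Psmc6, which encodes the subunit Rpt4, had 51.9 FPKM in NT while the other 5 had 104 to 198 FPKM there. In the treated libraries it had 91.9 FPKM in IWR1 and 92.9 in Y27, above Psmc2, which had 90.4 and 86.9 FPKM. On 801 and 788 reads in IWR1 and Y27 against 466 in NT, all whole counts, Psmc6 was 1.74-fold higher in IWR1 (1.55 to 1.95) and 1.71-fold higher in Y27 (1.53 to 1.92). Of the 31 core and regulatory particle genes it was the only one past 1.5-fold in either direction in these comparisons. Its FPKM was 60.8% of that of Psmc3 in IWR1 (55.7 to 66.3%) and 63.6% in Y27 (58.2 to 69.6%), against 30.5% in NT (27.4 to 33.8%). No trend is removed from this ratio. Psmc6 has a GC content of 37.0%, the lowest of the proteasome genes, and Psmc3 one of 55.1%, the highest of the 6 ATPase genes. The log2 differences of Psmc3, -0.20 in IWR1 and -0.29 in Y27, became -0.04 and -0.08 with length and GC content removed. With the length trend removed the log2 difference of Psmc6 was 0.88 in IWR1 and 0.91 in Y27, instead of 0.79 and 0.77. Once the trend on length and GC content was removed it was 0.42 and 0.23, under 1.5-fold.

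The other ATPase genes Psmc2, Psmc3, Psmc4 and Psmc5 were lower in both treated libraries, by 1.15-fold to 1.26-fold, and Psmc1 was close to NT, with log2 differences of 0.07 and -0.13. Of the 11 non-ATPase genes, 7 and 9 were lower than NT in IWR1 and Y27, against 50.3% and 51.9% of all genes. The medians of the 11 were -0.13 in IWR1 and -0.28 in Y27. Psmd2, a large scaffold subunit that receives ubiquitin shuttle proteins, was the highest of them, with 163, 154 and 185 FPKM in IWR1, Y27 and NT. Psmd4, a ubiquitin receptor, had 156, 149 and 174 FPKM. Psmd14, which removes the ubiquitin chain before degradation, had 80.0, 81.3 and 85.9 FPKM, and Psmd12, a lid scaffold, 123, 126 and 119 FPKM, so these subunits of 1 particle differed little. Psmd13, a lid subunit, was 1.26-fold lower in IWR1 (1.15 to 1.37) and 1.36-fold lower in Y27 (1.24 to 1.49).

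The activators split. Psme1 and Psme2 encode PA28 alpha and beta, which cap the core and are induced by interferon, and had 205 and 303 FPKM in IWR1, 179 and 264 in Y27, and 213 and 333 in NT. Psme2 shares reads with Psme2b, a copy with 2.72 and 2.17 estimated reads in IWR1 and Y27, under the floor of 3 counts, and none in NT. Psme3, the nuclear PA28 gamma, had 117 FPKM in IWR1, 100.2 in Y27 and 115 in NT. Psme4, the nuclear activator PA200, went the other way. It had 43.6 FPKM in IWR1 and 47.2 in Y27, against 29.5 in NT, 1.45-fold higher in IWR1 (1.34 to 1.57) and 1.53-fold higher in Y27 (1.42 to 1.65). Its FPKM stood at 37.3% of that of Psme3 in IWR1 (34.8 to 39.9%) and 47.1% in Y27 (43.9 to 50.6%), against 25.6% in NT (23.7 to 27.6%). Psme4 has the longest transcript of the family, 6454 bases, and a GC content of 43.9%. With the length trend removed its log2 differences of 0.53 and 0.61 became 0.37 and 0.36. With length and GC content removed they were 0.17 and 0.06. The inhibitor gene Psmf1, which encodes PI31, had 12.1, 11.9 and 14.3 FPKM in IWR1, Y27 and NT.

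**Figure D5:**
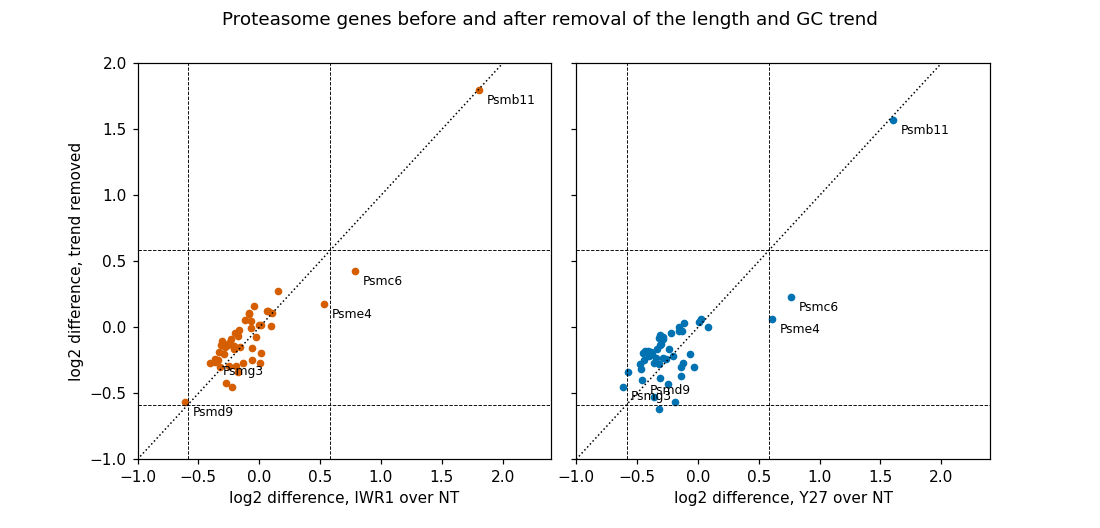
Log2 difference of each compared proteasome gene as measured (horizontal) and with the trend on length and GC content removed (vertical), for IWR1 over NT (left) and Y27 over NT (right). Dashed lines mark 1.5-fold and the dotted line equality. Psmc6 in both panels and Psme4 in Y27 move below the 1.5-fold line, while Psmb11 stays near 1.80 and 1.57.

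Assembly chaperones, which build the particles and then leave, held the genes past 1.5-fold on the lower side. Psmd9, a chaperone of the ATPase ring, had 12.9 FPKM in IWR1 and 14.8 in Y27, against 19.6 in NT, and was 1.54-fold lower in IWR1 (1.28 to 1.86), on fractional counts. With the length and GC trend taken out its log2 difference was -0.56 instead of -0.61, under 1.5-fold. Its companions Psmd5, with 25.3, 28.2 and 28.4 FPKM in IWR1, Y27 and NT, and Psmd10, also called gankyrin, with 15.1, 15 and 16.7 FPKM, differed less. Psmg3, a chaperone of the alpha ring, had 17.3 FPKM in IWR1 and 14.6 in Y27, against 22.1 in NT, and was 1.58-fold lower in Y27 (1.15 to 2.19), on 65 reads there. Its log2 difference in Y27 was -0.62, and -0.45 once that trend was taken out. Psmg4, its partner, was 1.52-fold lower in Y27 (1.14 to 2.05), but its log2 difference of -0.58 with the pseudocount fell just short of the threshold. Psmg1, another chaperone of the ring, had 64.0 FPKM in IWR1, 47.0 in Y27 and 56.3 in NT, with IWR1 above and Y27 below NT. Psmg2, which pairs with Psmg1, had 24.5, 26.8 and 30.3 FPKM.

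Psmb11, the catalytic subunit of the thymoproteasome made in cortical thymic epithelium, was the only proteasome gene at least 2-fold higher in IWR1 or Y27 than in NT, where 2.28% and 5.58% of all genes were, and 0 were 2-fold lower, against 2.25% and 1.34%. It had 31 estimated reads in IWR1 and 26.15 in Y27, against 4.94 in NT, or 1.29 and 1.12 FPKM against 0.20. At 0.874 CPM in NT, it reached the mean of 1 CPM only through IWR1 and Y27, at 5.54 and 4.69 CPM. It was 6.34-fold higher in IWR1 (2.41 to 20.6) and 5.36-fold higher in Y27 (1.99 to 17.6). These levels are far under those of Psmb5, its counterpart in the standard core, and the counts are partly fractional. Foxn1, the defining factor of thymic epithelium, had no row in the tables used. Psmc3ip had 21.3, 24.7 and 25.7 FPKM in IWR1, Y27 and NT, and Psme3ip1 33.5, 34.9 and 37.2 FPKM. Of 4 male germ cell markers, Sycp3 and Tex11 had at most 5 reads and Ddx4 and Dazl had no row.

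Proteasome genes can be induced together through antioxidant response elements in their promoters, bound by NRF1, the product of Nfe2l1. Promoter windows from RefSeq on GRCm38.p6, from 250 bases before to 50 after the start site, matched 43 of the 50 genes, in 47 windows. Psmb1, Psmb2, Psmb7, Psmc3, Psmd3, Psmd7 and Psmg2 were not matched. The core of the element, TGACNNNGC on either strand, was in 6 of the 47 windows (12.8%), against 12.4% of all 32851 windows. The genes were Psmc6 and Psme4, Psmb5 and Psmb6, Psmd9 and Psmd12. As measured, before removal of the length and GC trend, Psmc6 and Psme4 were higher than NT in the treated libraries. Psmb5, Psmb6 and Psmd9 were lower, and Psmd12 was close to NT. The part of the element in these differences was not tested. Windows of 4 of these genes are shown, 5′ to 3′ on the strand of the gene, because they differed in opposite directions as measured, with the element's letters in capitals.
Psmc6, chr14:45329574-45329873, plus strand: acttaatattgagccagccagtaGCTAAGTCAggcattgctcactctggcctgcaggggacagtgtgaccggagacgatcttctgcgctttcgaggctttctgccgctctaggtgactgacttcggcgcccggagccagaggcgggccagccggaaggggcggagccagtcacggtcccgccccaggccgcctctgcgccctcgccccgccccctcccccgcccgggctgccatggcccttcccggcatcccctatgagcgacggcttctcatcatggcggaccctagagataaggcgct
Psme4, chr11:30771525-30771824, plus strand: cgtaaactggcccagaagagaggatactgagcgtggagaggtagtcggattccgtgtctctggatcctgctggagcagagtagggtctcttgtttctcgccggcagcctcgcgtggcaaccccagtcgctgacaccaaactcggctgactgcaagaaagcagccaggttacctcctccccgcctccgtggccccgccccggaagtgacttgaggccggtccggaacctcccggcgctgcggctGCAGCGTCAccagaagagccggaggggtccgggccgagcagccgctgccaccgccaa
Psmb5, chr14:54617946-54618245, minus strand: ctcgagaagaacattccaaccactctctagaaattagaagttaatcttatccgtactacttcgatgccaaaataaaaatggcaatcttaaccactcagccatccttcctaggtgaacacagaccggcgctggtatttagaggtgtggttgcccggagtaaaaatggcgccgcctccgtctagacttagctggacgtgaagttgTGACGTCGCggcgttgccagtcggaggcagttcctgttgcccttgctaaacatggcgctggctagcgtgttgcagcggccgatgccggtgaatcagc
Psmb6, chr11:70525107-70525406, plus strand: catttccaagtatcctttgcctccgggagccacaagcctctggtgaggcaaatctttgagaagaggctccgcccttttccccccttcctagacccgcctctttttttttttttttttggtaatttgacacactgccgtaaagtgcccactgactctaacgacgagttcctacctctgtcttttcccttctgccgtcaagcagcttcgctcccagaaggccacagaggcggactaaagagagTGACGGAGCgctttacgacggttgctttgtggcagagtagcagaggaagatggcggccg
The matched letters begin 227 bases before the start site in Psmc6, 7 in Psme4, 47 in Psmb5 and 9 in Psmb6. A core of ETS factor sites, CCGGAAG on either strand, was in 17 of the 47 windows (36.2%), against 8.86% of all windows. Its 16 genes include Psmc6 and Psme4, and also Psmd13 and Psmg3, which were lower in the treated libraries. A core of interferon-stimulated response elements, GAAA repeated after any 2 bases on either strand, was in 5 of the 47 windows (10.6%), against 3.44% of all, and in none of Psmb8, Psmb9 and Psmb10. These matches are descriptions of the letters in the windows.

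Of 14 genes whose products act with the particle, 6 (42.9%) were lower than NT in IWR1, against 50.3% of all genes. In Y27, 9 of the 14 (64.3%) were lower, against 51.9%. Their median log2 difference was 0.02 in IWR1 and -0.19 in Y27. In each comparison 1 was at least 1.5-fold higher (10.8% and 14.9% of all genes) and 0 lower (6.37% and 5.53%). It was Uchl5, a deubiquitinase bound to the regulatory particle, with 32.3 FPKM in IWR1 and 32.9 in Y27, against 17.9 in NT. It was 1.77-fold higher in IWR1 (1.47 to 2.12) and 1.76-fold higher in Y27 (1.46 to 2.11), and its transcript has a GC content of 39.2%. Its log2 difference was 0.80 in IWR1 and 0.79 in Y27, and with the length trend removed 0.87 and 0.90. With length and GC content removed it was 0.48 and 0.34. Ecpas, which binds the assembled proteasome, had 26.3 FPKM in IWR1 and 23.8 in Y27, against 18.0 in NT. Adrm1, the receptor that anchors Uchl5, had 119, 120 and 134 FPKM in IWR1, Y27 and NT, and Pomp, the maturation factor of the core, 165, 155 and 182 FPKM. Sem1, the smallest subunit of the lid, had 185, 207 and 234 FPKM.

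The 12 genes listed for the NRF1 route had medians of -0.12 in IWR1 and -0.14 in Y27. The list also holds Nfe2l2, Nfe2l3 and Keap1, which encode NRF2, NRF3 and a regulator of NRF2. Nfe2l1 had 83.4 FPKM in IWR1 and 68.9 in Y27, against 89.1 in NT, 1.38-fold lower in Y27 (1.29 to 1.47). Ddi2, the protease that activates NRF1, had 33.9, 32.2 and 31.1 FPKM, and Vcp, the ATPase that extracts it from the endoplasmic reticulum, 228, 242 and 260 FPKM. Maff, which encodes a small Maf protein that can pair with NRF factors, had 11.9 FPKM in IWR1 and 8.88 in Y27, against 20.7 in NT, 1.77-fold lower in IWR1 (1.42 to 2.21) and 2.43-fold lower in Y27 (1.91 to 3.12). With the length and GC trend removed its log2 differences were -0.63 and -1.03. Mafk, another small Maf gene, was 1.58-fold lower in Y27 (1.2 to 2.0). In Y27, 2 of the 12 were at least 1.5-fold higher, Ngly1 and Nfe2l3, on 49 and 13 reads, and 2 lower, Maff and Mafk, against 14.9% and 5.53% of all genes. Ngly1 was 1.60-fold higher (1.001 to 2.60) and Nfe2l3 2.19-fold (0.778 to 7.04), an interval that includes no difference. Taking out the length and GC trend brought Ngly1 to 0.14 and Mafk to -0.48, both under 1.5-fold, and Nfe2l3 to 0.72. Of 9 NRF2 target genes 7 were compared, with medians of 0.01 in IWR1 and -0.24 in Y27 and 0 past 1.5-fold in either direction.

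Of 6 genes of ubiquitin and its activation, 5 were lower than NT in each treated library, against 50.3% and 51.9% of all genes, with medians of -0.25 and -0.28. The polyubiquitin gene Ubb had 1710 and 1736 FPKM in IWR1 and Y27, against 2148 in NT, on fractional counts. Uba6, which encodes the second ubiquitin-activating enzyme, had 13.2 FPKM in IWR1 and 18.3 in Y27, against 7.70 in NT, 1.68-fold higher (1.42 to 1.98) and 2.27-fold higher (1.94 to 2.67). The Uba6 transcript has 5101 bases and a GC content of 37.4%. With the length trend removed its log2 differences of 0.73 and 1.17 became 0.62 and 0.99. With length and GC content removed they were 0.03 and 0.09.

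As measured, ribosomal protein and oxidative phosphorylation genes had medians close to those of the proteasome genes, and the chaperonin medians lay nearer to NT. Against the proteasome medians of -0.18 and -0.30 in IWR1 and Y27, 80 ribosomal protein genes had -0.18 and -0.33, 78 genes of oxidative phosphorylation -0.18 and -0.27, and 8 chaperonin genes -0.03 and -0.20. No trend is removed from these medians. The chaperonin genes ran from -0.20 to 0.29 in IWR1 and from -0.33 to 0.32 in Y27. After removal of the length and GC trend they ran from -0.34 to 0.09 and from -0.54 to 0.05, so the order of the medians may depend on it. The log2 differences of the ribosomal protein genes ran from -0.32 to 0.28 in IWR1 and from -0.48 to 0.02 in Y27. Those of the proteasome genes ran from -0.61 to 1.80 and from -0.62 to 1.60, with Psmb11, on few reads, at the upper end. The 31 core and regulatory particle genes ran from -0.36 to 0.79 and from -0.47 to 0.77, with Psmc6 at the upper end. Next below Psmc6 were Psmd6 at 0.11 in IWR1 and Psma1 at 0.08 in Y27.

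IWR1 and Y27 were also set against each other. In IWR1, 41 of 49 proteasome genes were higher than in Y27, against 50.1% of all genes, and 8 lower, against 49.9%. The median log2 difference was 0.10, against 0.0014 over all genes. At 1.5-fold 0 were higher (5.06% of all genes) and 0 lower (8.20%), and at 2-fold likewise 0 and 0 (1.38% and 2.90%). At a log2 difference of 0.32, 3 were higher (13.9%) and 0 lower (18.3%). The 3 were Psmg1, 1.39-fold higher in IWR1 (1.18 to 1.64), Psmd7, a lid subunit that supports Psmd14, 1.35-fold higher (1.22 to 1.5), at 94.0 FPKM in IWR1 against 71.4 in Y27, and Psma7, 1.33-fold higher (1.22 to 1.46). Psmc6 and Psme4 differed little between the treated libraries, with log2 differences of 0.02 and -0.08.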

How the data were processed

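The data are 1 RNA-seq table each for IWR1, Y27 and NT, made from total RNA per the labels. As deposited by the authors, a table holds for every Entrez gene its length, an expected count (estimated reads) and an FPKM value (per length and library total), per the file headers. Bowtie 0.12.2 and mm8 are named in the submitters' processing notes. The counting tool, and whether it used strand, are not given in the sources used here.

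Symbols came from RefSeq (GRCm38.p6), found for 17160 of 17209 identifiers (99.7%). The build differs from the files', so only promoter windows carry coordinates. GC content came from the longest GENCODE transcript, for 99.2% of the genes compared. A gene without a row was taken as 0, with a floor of 3 counts. Scaling used edgeR 4.0.16 (R 4.3.3) and its TMM factors (0.998, 1.02 and 0.980 in IWR1, Y27 and NT). The 12955 genes averaging 1 CPM or more were compared with a pseudocount of 1 CPM and a threshold of 1.5-fold. Expected counts were rounded for the intervals, which cover counting error only. Other settings were DESeq2 1.42.0 size factors and those in the closing section. Steps were tested on simulated data. Python 3.11.15 was used for the rest. Named genes were those past 1.5-fold, the catalytic subunits, the activators and the extremes of each class, and the leading members of related lists. Others were chosen after their values were seen to fill out each role. The members and lists were chosen with earlier results of these data known, and the ETS and interferon motifs after the files were seen. Protein sequences were not used here. Some members of the marker and ubiquitin lists are not reported here by name.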

Additional observations from a re-analysis of the deposited data

How the results depend on the processing

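The medians of the 49 proteasome genes kept their sign in all 3 comparisons under every alternative tried: pseudocounts of 0.1 and 5 CPM, library totals, DESeq2 and upper quartile factors, no level filter or 5 CPM, deposited FPKM, whole counts only, and the removal of trends. That for Y27 over NT moved beyond the counting interval of a typical member to -0.14 with the length trend removed. With the length trend removed, the IWR1 medians were 0.10 for the alpha ring, 0.029 for the immunoproteasome subunits and 0.035 for the activators, all 3 of which changed sign, -0.11 for the other beta genes and -0.15 for the catalytic subunits. The Y27 medians were then -0.0021 for the alpha ring, -0.0804 for the beta genes, -0.18 for the catalytic and -0.17 for the immunoproteasome subunits, -0.14 for the ATPases and -0.13 for the activators. With length and GC content removed, the IWR1 medians were -0.078 for the ATPases and 0.063 for the activators and 0.053 for the immunoproteasome subunits, the last 2 of which changed sign, and the Y27 medians -0.12 for the beta genes, -0.21 for the catalytic and -0.18 for the immunoproteasome subunits, -0.10 for the ATPases and -0.12 for the activators. The count of genes 1.5-fold higher in IWR1 became 1 with a filter of 5 CPM, with length and GC content removed, with whole counts and at 2-fold. The count lower in IWR1 became 0 with a pseudocount of 5 CPM, FPKM, length and GC content removed, whole counts and 2-fold, and 7 at a log2 threshold of 0.32. In Y27 the count higher became 1 with length and GC content removed and at 2-fold. The count lower in Y27 became 2 with a pseudocount of 0.1 CPM or upper quartile factors, 0 with a pseudocount of 5 CPM, library totals, FPKM, the length trend removed and 2-fold, and 18 at a log2 threshold of 0.32. With length and GC content removed the 1 gene lower in Y27 was Psmc2, at -0.62, in place of Psmg3. The count higher in IWR1 than in Y27 became 3 at a log2 threshold of 0.32. The cause of these shifts was not tested. Every gene had 1 row, so the choice between rows changed nothing and was not run. No paired analysis was possible because each group has 1 library, and for the same reason no library could be left out. Depth limits Psmb11, Psme2b, Psmb9 and Psmg3 most.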
